A study of Mus musculus with 696 samples.

Results

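The genes described here are 38 immediate early and heat shock genes, chosen by name: 31 early genes and 7 heat shock chaperones. All 38 were found among the 15652 genes measured in single cells of mouse tail skin. The cells came from female mice of CBA C57BL/6 mixed strain that carried Lrig1-EGFP-ires-CreERT2 together with the reporter Rosa26-fl/STOP/fl-tdTomato and that all received hydroxytamoxifen once on the tail, so that cells expressing Lrig1 at that time, and their progeny, carried tdTomato. Every group shares this labelling. Labelled epidermal cells were sorted from a zone holding the wound bed and the follicles distal to it, in unwounded homeostasis (0w), 1 week (1w pw1) and 8 weeks (8w pw1) after the first of 2 wounds, and 1 week after the other, given at 8 weeks (1w pw2, labelled 9w). Each time point had 2 plates of 79 to 91 cells, 696 cells in all, and the plate was the unit of comparison. Counts summed over a plate came to between 12293182 and 19760820, and levels are given as CPM, counts relative to that sum after TMM scaling. The study's methods describe 2 independent experiments with 4 biological replicates each, but the labels do not tie a plate to animals, so p-values measure the spread between plates. Both plates of a time point also share a letter in their titles that no other time point has, so that whatever the letter stands for and the time point cannot be told apart. Mice were labelled as adults before the first wound, so those of 8w pw1 and 1w pw2 were older and further from labelling. Age and time since labelling therefore cannot be told apart from the time point either.

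Immediate early genes are transcribed within minutes of a growth factor, a wound or another stress, from signalling factors already present in the cell, without new protein synthesis. Many encode transcription factors, such as the Fos and Jun proteins that pair to form AP-1, and others encode phosphatases and RNA-binding proteins that end the response. In epidermis AP-1 is known for its part in wound repair and keratinocyte differentiation. Heat shock chaperones fold damaged proteins and are induced by the factor Hsf1. Enzymatic dissociation of tissue is known to induce both classes. Here tail skin was kept in trypsin and EDTA overnight in the cold before sorting at every time point, and what this did to the members was not tested.

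The 5 basal keratinocyte markers were read in 362 (Itgb4) to 620 (Krt14) of 696 cells and the 5 differentiated ones in 290 (Krt1) to 537 (Krtdap). The 4 measured immune markers summed to 0.260 to 52.1 CPM per plate and the 5 fibroblast markers to 0.586 to 25.4 CPM, and Kdr, of endothelium, had reads in 4 cells. Pecam1, the other endothelial marker measured, had reads in 687 cells, and whether these come from Pecam1 transcripts was not tested, so that it says nothing certain of endothelium. The makeup of the keratinocytes differed between time points: 5 wound-activated markers (Krt6a, Krt6b, Krt16, S100a8, S100a9) summed to 51.2 and 55.2 CPM on the 0w plates to 27529.6 and 10381 CPM at 1w pw1, to 702 and 390.4 CPM at 8w pw1 and to 2098 and 3785 CPM at 1w pw2. The 6 bulge markers summed to 1525 and 742 CPM at 0w, 140.1 and 174 at 1w pw1, 895 and 593 at 8w pw1, and 193 and 351 at 1w pw2. Sebaceous gland markers (6 genes) also differed between plates of one time point. They summed to 863 and 7678 CPM at 0w and to 856 and 3821 at 8w pw1. At 1w pw1 the sums were 567 and 563 CPM, and at 1w pw2 732 and 614. The median mitochondrial share of a cell's counts was 22.7 and 30.7% at 0w, 17.9 and 23.9% at 1w pw1, 18.2 and 22.1% at 8w pw1 and 14.3 and 13.0% at 1w pw2. Fewer cells of a type and less RNA per cell cannot be told apart in plate sums, and the part of these differences in the results below was not tested.

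The comparisons ask how the early and stress programme of Lrig1 progeny stood after 1 wound, after healing and after a second wound. Of the members, 37 had enough counts to be tested. Klf2, a factor known from endothelium, had 31 counts in 13 cells and was left out. No member passed in any of 7 comparisons by edgeR's quasi-likelihood test, where a call needed an adjusted p (Benjamini-Hochberg) under 0.05 together with more than a 2-fold difference. Over all 13853 genes, 0.527% passed for 1w pw1 against 0w, 0% for 8w pw1 against 0w, 0.267% for 1w pw2 against 0w, 0.115% at 8w pw1 against 1w pw1, 0.00722% at 1w pw2 against 8w pw1, 0% at 1w pw2 against 1w pw1 and 0% for the difference between the 2 healings, that is, (1w pw2 minus 8w pw1) minus (1w pw1 minus 0w). The alternative test, DESeq2, called 3 members at 1w pw1 against 0w (Dusp6, Ier5 and Hsph1; 4.68% of genes), 1 at 8w pw1 against 0w (Fos; 1.03%), 3 at 1w pw2 against 0w (Fos, Fosl1 and Gadd45b; 4.43%), 4 at 8w pw1 against 1w pw1 (Fos, Fosl1, Junb and Atf3; 3.73%), 1 at 1w pw2 against 8w pw1 (Fosl1; 1.86%) and 0 in the remaining comparisons. Where a DESeq2 adjusted p is printed below for a member, it is the lowest over that member's alternatives, whose highest values lay between 0.450 and 0.734.

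At an unadjusted p below 0.05 in edgeR, the member counts leaned towards lower levels at 8w pw1. Against 0w, 0 members were higher and 7 lower at 8w pw1, beside 3.81% and 2.66% of all genes. Against 1w pw1, 1 was higher and 8 were lower, beside 6.40% and 4.66%. At 1w pw2 against 8w pw1, 4 were higher and 0 lower, beside 3.64% and 4.30%. The first wound gave 5 higher and 3 lower members at 1w pw1 against 0w, beside 5.45% and 6.01%. At 1w pw2 against 0w there were 3 higher and 4 lower, beside 6.82% and 5.73%. Between the wound time points, 1w pw2 against 1w pw1, there were 3 higher and 2 lower, beside 3.38% and 2.63%. The difference between the healings gave 1 higher member and 0 lower, beside 2.40% and 2.94%.

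The median log2 fold change of the 37 members was -0.40 at 8w pw1 against 0w and -0.72 at 8w pw1 against 1w pw1, where the medians over all genes were 0.07 and 0.09. The first of these was -0.65 without 8w pw1 replicate 1. It was 0.53 at 1w pw2 against 8w pw1 (all genes 0.01), 0.30 at 1w pw1 against 0w (all genes -0.04; 0.10 without 0w replicate 1), 0.06 at 1w pw2 against 0w (all genes 0.05; -0.13 without 1w pw2 replicate 2) and -0.22 at 1w pw2 against 1w pw1 (all genes 0.09; -0.47 with every cell given equal weight, -0.14 without 1w pw2 replicate 1). These comparisons share plates and are not independent of each other. On the log2 CPM scale, the mean over the 30 tested early genes was 4.15 and 4.06 on the 8w pw1 plates, 4.66 on each 0w plate, 4.90 and 4.88 at 1w pw1, and 4.74 and 4.81 at 1w pw2. Both 8w pw1 plates were thus the lowest of the 8. The 7 chaperones gave 6.19 and 6.69 at 8w pw1, within the 6.16 and 6.72 of 0w, 7.03 and 6.97 at 1w pw1, the highest of the 8, and 6.10 and 6.74 at 1w pw2. Depth was low at 8w pw1 too: replicate 1 had the lowest total of the 8 plates (12293182 counts). Replicate 2 had the lowest median counts per cell (64979, elsewhere 105582 to 256587), and 1 cell held 12.1% of its counts. The part of depth in these levels was not tested.

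**Figure D1:**
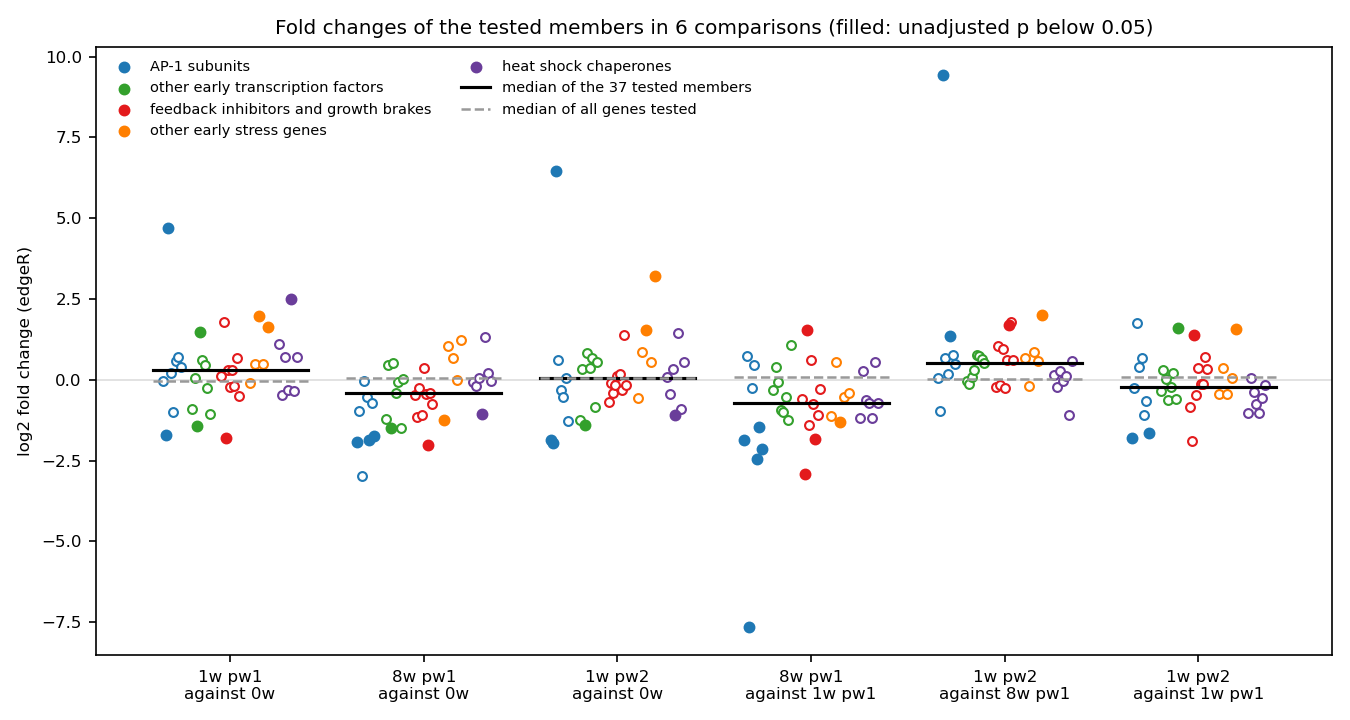
Log2 fold change (edgeR, vertical axis) of the 37 tested members in 6 comparisons, coloured by role, with filled points at an unadjusted p below 0.05, the member median as a black line and the median of all genes as a dashed line. Member medians lie below that of all genes in both comparisons of 8w pw1 with an earlier time point (-0.40 and -0.72). The points at the far ends are Fosl1, whose fitted fold change depends on the prior count because it had 0 to 2 counts on the plates of 0w and 8w pw1.

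Counting genes whose 2 plates at a time point lay outside the range of the other 6 gave a like picture. Both 8w pw1 plates were below the rest for 6 members (Junb, Jund, Zfp36, Btg2, Nfkbia and Ier2), 16.2% of those tested, beside 3.36% of all genes, and above the rest for Ier3, beside 4.32%. Both 1w pw2 plates were above the rest for 6 members (Fosl1, Fosl2, Klf10, Myc, Socs3 and Gadd45b), beside 5.13%, and below the rest for 0, beside 3.54%. At 1w pw1, 5 members stood above (Jund, Klf4, Dusp5, Hspa1a and Hsph1; 5.35% of genes) and Myc and Dusp6 below (5.30%). At 0w, Egr1 and Egr3 stood above (4.89%) and Ier3, Ier5, Gadd45b and Hsph1 below (5.71%).

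Fos is the AP-1 subunit whose gene is best known as an immediate early gene, and it was the member with the highest level per kilobase of exon at 0w (271 CPM per kb). Its promoter is shown with those of Jun, its AP-1 partner, Fosb, a related subunit, and Dusp1, a phosphatase that switches off MAP kinases, because these 3 and Egr1 (not shown) were the members whose reads correlated most with those of Fos from cell to cell. They are the 150 bases before the RefSeq start on GRCm38.p6, read along the gene's strand. For Fos these are chr12:85473740-85473889 (plus strand), for Jun chr4:95052223-95052372 (minus strand), for Fosb chr7:19310046-19310195 (minus strand) and for Dusp1 chr17:26508473-26508622 (minus strand). Capitals mark TGACG on either strand, the core letters of the cAMP response element bound by factors of the Creb and Atf family, and TATAAA on the gene's strand, a TATA box.
Fos: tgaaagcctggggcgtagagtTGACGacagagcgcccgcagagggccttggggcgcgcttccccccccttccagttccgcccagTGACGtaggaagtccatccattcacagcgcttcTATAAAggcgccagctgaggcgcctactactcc
Jun: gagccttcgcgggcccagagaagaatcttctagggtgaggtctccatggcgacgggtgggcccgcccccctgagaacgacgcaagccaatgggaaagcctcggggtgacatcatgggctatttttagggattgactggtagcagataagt
Fosb: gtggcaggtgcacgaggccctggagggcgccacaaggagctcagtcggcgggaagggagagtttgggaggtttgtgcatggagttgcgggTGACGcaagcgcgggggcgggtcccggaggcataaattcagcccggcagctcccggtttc
Dusp1: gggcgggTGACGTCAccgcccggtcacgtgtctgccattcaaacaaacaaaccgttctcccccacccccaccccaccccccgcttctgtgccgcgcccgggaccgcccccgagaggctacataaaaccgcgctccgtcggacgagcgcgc
In Fos the core begins 129 and 66 bases before the start and the TATA box 33 bases before it. Jun has neither set of letters in the bases shown. Fosb has 1 core, 60 bases before the start, and in Dusp1 there are 2 overlapping ones, from 143 and 140 bases before it. Within 250 bases before the start, TGACG was present in 15 of the 38 windows that 30 members had, beside 17.8% of all 32851 windows, and TATAAA in 4 of the 38, beside 7.59%. These are letter matches, with no measure of binding.

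The AP-1 subunits were led by Fos, with 486 and 789.7 CPM on the 0w plates, 525 and 705 at 1w pw1, 141 and 199 at 8w pw1, and 145 and 205 at 1w pw2. The plates of the first 2 time points lay above those of the last 2, with no overlap. The mice of the last 2 were also older, and the part of age was not tested. The log2 difference was -1.91 ± 0.47 (SE) for 8w pw1 against 0w and -1.86 ± 0.47 for 1w pw2 against 0w, with edgeR adjusted p of 0.616 and 0.168. Against 1w pw1 it was -1.85 ± 0.47 at 8w pw1 (adjusted p = 0.178). Of these, 2 were called once the replicate number entered edgeR as a block, with an adjusted p of 0.0405 for 1w pw2 against 0w (0.693% of genes called) and 0.0481 for 8w pw1 against 1w pw1 (0.794% called). Over all alternatives run, these 2 adjusted p ranged from 0.0140 to 0.570 and from 0.0171 to 0.726. The cell with the most Fos counts held 8.57 and 18.1% of a plate's at 0w, 36.6 and 19.7% at 1w pw1, 18.4 and 64.3% at 8w pw1, and 9.92 and 28.4% at 1w pw2. The difference of 8w pw1 from 0w was -2.57 without the deepest cell of each plate. With every cell given equal weight it was -1.52.

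Junb, an AP-1 partner of the Fos proteins, had 19.8 and 41.6 CPM at 0w, 38.6 and 53.1 at 1w pw1, 7.56 and 9.26 at 8w pw1, and 14.3 and 28.6 at 1w pw2. Both 8w pw1 plates were the lowest of the 8. The log2 difference from 1w pw1 was -2.45 ± 0.63 (edgeR adjusted p = 0.178, DESeq2 0.00580), and Prdx2 overlaps an exon of Junb on the opposite strand, so that unstranded reads of the 2 cannot be told apart there. Atf3, a stress-induced member of the family, had 19.1 and 15.3 CPM at 0w, 26.7 and 18.5 at 1w pw1, 5.90 and 4.31 at 8w pw1, and 4.06 and 10.2 at 1w pw2. Its plates split as those of Fos did, with every plate of 0w and 1w pw1 above every later plate. The log2 difference of Atf3 at 8w pw1 from 1w pw1 was -2.14 ± 0.67 (edgeR adjusted p = 0.268, DESeq2 0.0326). It was read in 102 cells only, and at 1w pw1 single cells held 53.7 and 59.8% of its counts.

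Fosl1, the AP-1 subunit known from migrating keratinocytes at wound edges, was rare. Nearly all its counts came from the plates of 1w pw1 and 1w pw2. It had 2 counts in 1 cell at 0w, 49 counts in 6 of 168 cells at 1w pw1 (27 and 22 on the plates), 0 counts in 172 cells at 8w pw1 and 161 counts in 13 of 177 cells at 1w pw2 (112 and 49). The 0 of 172 cells allows a share of cells with a read, not of cells expressing the gene, of up to 1.74% by the count of 3 that a 0 allows, for counting error only. Depth per cell differed between plates. At equal depth Fosl1 was read in 0 of 167 cells at 0w and 1 of 158 at 1w pw1. It was read in 0 of 154 cells at 8w pw1 and 5 of 166 at 1w pw2. The exact 95% binomial intervals of all time points overlapped, so these shares do not separate them. The edgeR adjusted p was 0.275 for 1w pw2 against 8w pw1, and DESeq2 gave 9.57e-04. Single cells held 56 and 87.7% of the counts at 1w pw2, 35.0% of its values were not whole numbers, and Ccdc85b overlaps it on the opposite strand. Fosb had 46.8 and 21.8 CPM at 0w and 10.9 and 6.74 at 1w pw2, a log2 difference of -1.96 ± 0.71 (edgeR adjusted p = 0.30). Its 8w pw1 plates, at 26.1 and 8.81 CPM, overlapped both. Jun ranged from 16.5 to 96.2 CPM, Fosl2 from 90.4 to 164 and Jund from 5.40 to 20.2. Of these 3, Jund at 8w pw1 against 1w pw1 had an unadjusted p under 0.05 (log2 difference -1.45 ± 0.61, edgeR adjusted p = 0.424).

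**Figure D2:**
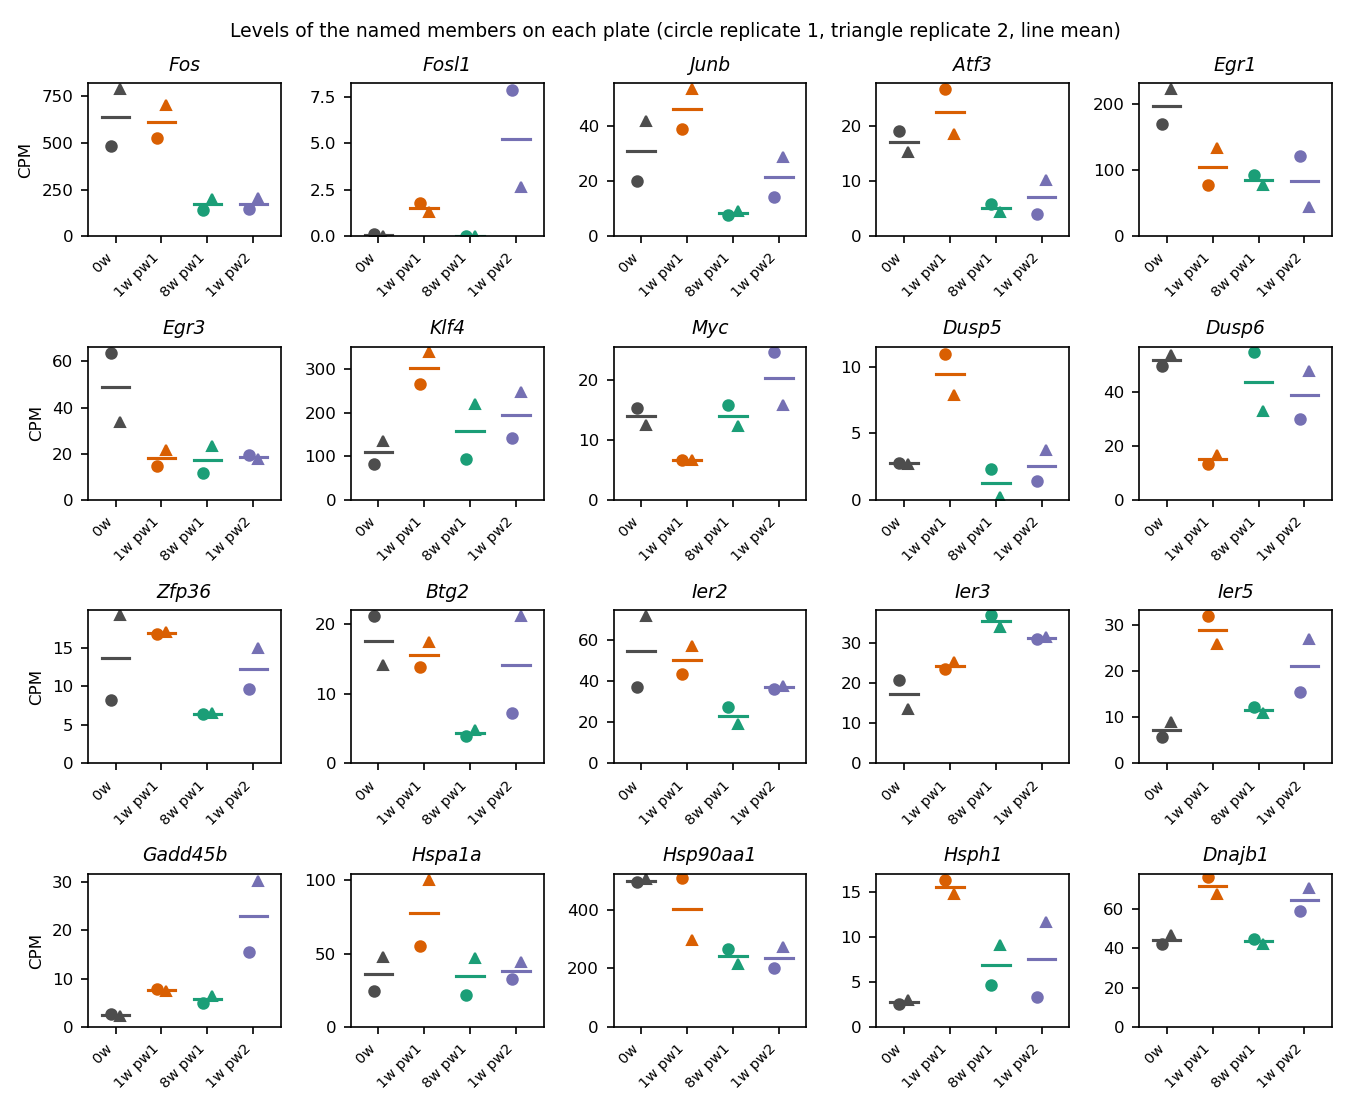
Level of 20 members on each of the 8 plates, in TMM-scaled CPM on axes from 0, by time point (circle, replicate 1; triangle, replicate 2; line, mean of both). Fos sits between 141 and 205 CPM at 8w pw1 and 1w pw2 and between 486 and 789.7 CPM before, Gadd45b is highest at 1w pw2, and Dusp6 and Myc are lowest at 1w pw1.

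Of the 8 other early transcription factors tested, 6 had a log2 difference below 0 at 8w pw1 against 1w pw1 (median -0.42, all genes 0.09), as did 6 of the 8 AP-1 subunits (median -1.65). Against 0w it was 5 of 8 (-0.24) and 8 of 8 (-1.36) in that order. Egr1, a zinc finger factor induced by MAP kinase signalling, had 170.1 and 223 CPM at 0w, 77.8 and 133 at 1w pw1, 92.3 and 76.8 at 8w pw1, and 121 and 44.6 at 1w pw2. Both 0w plates were above the other 6. The log2 difference from 0w was -1.22 ± 0.56 at 8w pw1 and -1.24 ± 0.56 at 1w pw2 (edgeR adjusted p = 0.775 and 0.402). With 1w pw2 replicate 1 left out the difference at 1w pw2 was -2.17, and without replicate 2 it was -0.68. Egr3, of the same family, likewise stood highest at 0w, with 63.8 and 33.7 CPM at 0w, 14.8 and 21.5 at 1w pw1, 11.4 and 23.3 at 8w pw1, and 19.4 and 17.6 at 1w pw2, but 1 cell held 60.3% of the Egr3 counts on 0w replicate 1, and at equal depth Egr3 was read in 14.4% of cells at 0w and 17.1% at 1w pw1. Egr2 had the highest level per kilobase of the family (65.4 CPM per kb over all plates, against 26.2 for Egr1) and another pattern, with 141 and 242 CPM at 0w, 128 and 264 at 1w pw1, 269.9 and 253 at 8w pw1, and 252 and 228 at 1w pw2, with overlapping plates at 0w and 1w pw1.

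Klf4, a factor of barrier formation in differentiating keratinocytes, had 82.8 and 136 CPM at 0w, 265 and 339 at 1w pw1, 94.4 and 221 at 8w pw1, and 143 and 247 at 1w pw2. Both 1w pw1 plates were above the other 6, with a log2 difference from 0w of 1.47 ± 0.55 (edgeR adjusted p = 0.325), or 0.97 with equal weight for every cell. Differentiated keratinocyte markers moved the same way, from 2479.8 and 3232 summed CPM at 0w to 41862 and 41579 at 1w pw1. Myc, a driver of cell growth, had 15.4 and 12.5 CPM at 0w, 6.73 and 6.68 at 1w pw1, 15.8 and 12.3 at 8w pw1, and 24.7 and 15.9 at 1w pw2. The plates of 0w and 8w pw1 lay between those of the wound time points. The log2 difference between the wound time points was 1.60 ± 0.58 (edgeR adjusted p = 0.781). Klf6 and Klf10, related zinc finger factors, and Nr4a1, a nuclear receptor, ranged over 61.5 to 155, 56.9 to 137 and 1.08 to 12 CPM, and none had an unadjusted p under 0.05 in a comparison.

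Among feedback inhibitors and growth brakes, Dusp6, a phosphatase that acts on Erk and is itself an Erk target, had 49.6 and 53.5 CPM at 0w, 13.3 and 16.6 at 1w pw1, 54.6 and 32.8 at 8w pw1, and 29.9 and 47.7 at 1w pw2. The 1w pw1 plates were the lowest of the 8. The log2 difference from 0w was -1.79 ± 0.53 (edgeR adjusted p = 0.194, DESeq2 0.0309), and the difference between the 2 healings was 1.62 ± 0.73 (unadjusted p = 0.0499, edgeR adjusted p = 0.925), and 0.58 with a stricter filter on cells (at least 2000 genes, at most 25% mitochondrial). Dusp5, a nuclear phosphatase for Erk, went the other way at 1w pw1, with 2.80 and 2.70 CPM at 0w, 11 and 7.91 at 1w pw1, 2.30 and 0.196 at 8w pw1, and 1.40 and 3.72 at 1w pw2. Its log2 difference at 8w pw1 from 1w pw1 was -2.92 ± 1.13 (edgeR adjusted p = 0.385), and without 8w pw1 replicate 1 it was -5.55. Btg2, which slows the cell cycle, had 21.1 and 14.1 CPM at 0w, 13.8 and 17.4 at 1w pw1, 3.89 and 4.83 at 8w pw1, and 7.21 and 21.1 at 1w pw2. Both 8w pw1 plates were below the rest, by -2.01 ± 0.69 on the log2 scale against 0w (edgeR adjusted p = 0.700), or -1.30 with equal weight for every cell. Zfp36, an RNA-binding protein that speeds the decay of cytokine messengers, had 8.20 and 19.2 CPM at 0w, 16.8 and 17.0 at 1w pw1, 6.34 and 6.52 at 8w pw1, and 9.66 and 14.9 at 1w pw2.

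Dusp1, with 89.2 to 91.0 CPM at 0w, spanned 28.1 to 102 CPM on the 8w pw1 plates alone. Btg1, a relative of Btg2, spanned 128 to 388 CPM over the plates, Zfp36l1 42.6 to 85.5, Nfkbia, the inhibitor of NF-κB, 28.9 to 55, and Socs3, an inhibitor of cytokine signalling, 0.467 to 3.35. None of these 5 had an unadjusted p under 0.05 in any comparison.

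The other stress genes included those with the clearest higher levels after wounds. Gadd45b, a stress sensor that activates p38 and Jnk signalling, had 2.65 and 2.27 CPM at 0w, 7.84 and 7.50 at 1w pw1, 5.04 and 6.52 at 8w pw1, and 15.6 and 30.3 at 1w pw2. No time point overlapped another. The log2 difference of 1w pw2 from 0w was 3.22 ± 0.68, with an unadjusted p of 7.99e-04, an edgeR adjusted p of 0.112 and a DESeq2 adjusted p of 2.04e-04. Ier5, which acts on Hsf1 and the phosphatase PP2A, had 5.71 and 8.90 CPM at 0w, 31.8 and 25.8 at 1w pw1, 12.1 and 11 at 8w pw1, and 15.5 and 26.8 at 1w pw2. Both 0w plates were the lowest, and the log2 difference at 1w pw1 was 1.98 ± 0.59 (edgeR adjusted p = 0.201, DESeq2 0.0278), or 1.29 with the stricter filter on cells. Ier2 had 37 and 71.8 CPM at 0w, 43.6 and 57.3 at 1w pw1, 27.5 and 19.0 at 8w pw1, and 36.1 and 37.8 at 1w pw2, with both 8w pw1 plates the lowest. Ier3, a survival gene induced by NF-κB, ran opposite to it, with 20.9 and 13.6 CPM at 0w, 23.5 and 25.3 at 1w pw1, 37 and 34.1 at 8w pw1, the highest of the 8, and 31.1 and 31.4 at 1w pw2. Its log2 difference from 0w was 1.04 ± 0.50 (edgeR adjusted p = 0.775), or 0.63 with equal weight for every cell. Gadd45a ranged from 2.23 to 6.41 CPM with no difference at an unadjusted p under 0.05.

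The 7 heat shock chaperones had a median log2 difference of 0.69 at 1w pw1 against 0w (all genes -0.04). At 8w pw1 against 1w pw1 it was -0.72 (all genes 0.09). At an unadjusted p under 0.05 in edgeR, 1 was higher and 0 lower in the former comparison, beside 5.45% and 6.01% of all genes. In the latter there were 0 in either direction, beside 6.40% and 4.66%. Hspa8, the constitutive Hsp70, had 459 to 1485 CPM over the 8 plates and the highest member level per kilobase over all of them (196 CPM per kb), and Hsp90aa1, the inducible Hsp90, had 494 and 507 CPM at 0w, 508 and 297 at 1w pw1, 268 and 216 at 8w pw1, and 203 and 272 at 1w pw2. Every plate of 8w pw1 and 1w pw2 was below every earlier plate for Hsp90aa1. The log2 difference from 0w was -1.05 ± 0.45 at 8w pw1 and -1.08 ± 0.45 at 1w pw2 (edgeR adjusted p = 0.745 and 0.366), and with every cell given equal weight the former was -0.53. Hsph1, an Hsp110 that resets Hsp70, was the chaperone with the largest difference: it had 2.54 and 2.97 CPM at 0w, 16.3 and 14.8 at 1w pw1, 4.68 and 9.07 at 8w pw1, and 3.36 and 11.7 at 1w pw2. Its 1w pw1 plates were above the other 6, by 2.49 ± 0.79 on the log2 scale against 0w (edgeR adjusted p = 0.227, DESeq2 0.0318) or 1.63 with equal weight for every cell, and its 1w pw2 plates lay apart from each other. Single cells held 45.8 and 25.7% of the Hsph1 counts at 1w pw1. At equal depth Hsph1 was read in 4.19% of cells at 0w and 10.8% at 1w pw1. The share was 12.3% at 8w pw1 and 4.22% at 1w pw2, so it was not highest at 1w pw1. Dnajb1, a partner of Hsp70, had 42.1 and 46.9 CPM at 0w, 76.2 and 67.7 at 1w pw1, 44.9 and 42.4 at 8w pw1, and 58.9 and 70.5 at 1w pw2, and its lowest unadjusted p in a comparison was 0.133. Dnaja1 spanned 95.3 to 449 CPM, with replicate 2 above replicate 1 at each time point.

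Hspa1a and Hspa1b, the stress-inducible Hsp70 genes, lie near each other on chromosome 17 (Hspa1a at 34969190 to 34972156 and Hspa1b at 34956436 to 34959238, GRCm38). Their promoters are shown because they are almost a copy of each other: the 150 bases before the RefSeq start were equal at 149 positions, and 250 bases at 247. They are chr17:34972157-34972306 for Hspa1a and chr17:34959239-34959388 for Hspa1b, both on the minus strand, and capitals mark GAANNTTC, the core of a heat shock element bound by Hsf1, which reads the same on both strands.
Hspa1a: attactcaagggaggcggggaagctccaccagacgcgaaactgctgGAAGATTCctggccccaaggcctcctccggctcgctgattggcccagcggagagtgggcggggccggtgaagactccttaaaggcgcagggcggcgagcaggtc
Hspa1b: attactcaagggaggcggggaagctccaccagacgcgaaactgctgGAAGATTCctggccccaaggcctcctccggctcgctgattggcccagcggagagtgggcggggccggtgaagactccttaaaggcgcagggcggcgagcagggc
The element begins 104 bases before the start in both. It was found in 5 of the 38 member windows of 250 bases (also Dnaja1, Fosl2 and Jun), beside 6.69% of all windows. The transcripts are alike too, so that estimated counts can move between them: 51.5% of the Hspa1a values and 26.9% of the Hspa1b values were not whole numbers. Hspa1a had 24.5 and 47.5 CPM at 0w, 55.3 and 100.4 at 1w pw1, 21.9 and 47.2 at 8w pw1, and 32.6 and 44.3 at 1w pw2, and Hspa1b had 68.9 and 160.4 CPM at 0w and 72.5 to 127 on the later plates. Only Hspa1a had its 2 highest plates at 1w pw1, and neither gene had an unadjusted p under 0.05 in any comparison.

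A plate sum can come from few cells, so the share of cells with a read was taken at an equal depth of 20000 counts per cell, leaving 645 of 696 cells. Fos was read in 82.6 and 75.3% of cells at 0w, 45 and 55.1% at 1w pw1, 43.2 and 32.9% at 8w pw1, and 44.6 and 27.7% at 1w pw2. At 1w pw1 its plate level was thus close to that of 0w, while the share of cells was lower on both plates. Over both plates, the exact 95% binomial intervals were 72.1 to 84.9% at 0w (167 cells) and 42.0 to 58.0% at 1w pw1 (158 cells), covering counting error only, and with all counts the shares were 82.7 and 56%. In the median cell Fos stood at 268 and 232 CPM on the 0w plates and at 1.78 and 52.2 CPM at 1w pw1, where the highest cells reached 9119 and 8976 CPM. With 2 plates against 2, an exact test of such a share between 2 time points cannot reach a p below 0.05. No test of the shares over all 8 plates is given.

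Egr1 was likewise read most widely at 0w, in 69.8 and 72.8% of cells, and in 24.1 to 45.7% on the later plates. Jun was read in 50 and 38.3% at 0w, 18.8 and 15.4% at 1w pw1, 46.9 and 28.8% at 8w pw1, and 47.0 and 20.5% at 1w pw2, lowest at 1w pw1. Fosb was read in 43.0 and 27.2% at 0w and 7.23 to 27.2% later. Klf4 went the other way, with 58.1 and 54.3% at 0w, 68.8 and 78.2% at 1w pw1, 50.6 and 49.3% at 8w pw1, and 66.3 and 77.1% at 1w pw2, so that all 4 plates after a recent wound lay above all 4 others. Gadd45b was read in 5.81 and 2.47% at 0w and in 19.3 and 22.9% at 1w pw2. The median share over the 31 early members, with the cells of both plates pooled, was 31.1% at 0w and lay between 18.2% (8w pw1) and 21.1% (1w pw2) later, with 19.6% for 1w pw1. On single plates it was 29.1 and 27.2% at 0w and 15.1 to 21.7% later. The gap from 0w to the wound time points was smaller at other depths, which also changed the cells kept. With all counts (696 cells) the medians for 0w, 1w pw1 and 1w pw2 were 45.3, 43.5 and 42.4%, with 33.1% at 8w pw1. At 50000 counts per cell (560 cells) they were 38.2, 32.7 and 30.0%, with 24.4% at 8w pw1. Depth was not tested apart from the choice of cells. Both 8w pw1 plates were the lowest at 20000 and at 50000 counts, but with all counts, where depth differed between plates, 8w pw1 replicate 1 (37.6%) was above 1w pw2 replicate 2 (31.9%). With all counts the 0w plates (51.1 and 44.0%) overlapped those of 1w pw1 (40.4 and 50.6%) and of 1w pw2 (51.2 and 31.9%). The median cell had reads of 10 and 9.00 early members at 0w and of 6.00 to 9.00 on the later plates. The mitochondrial share, highest at 0w replicate 2 (30.7%) and lowest at 1w pw2 (13.0 and 14.3%), also differed between time points, and its part in these shares was not tested.

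**Figure D3:**
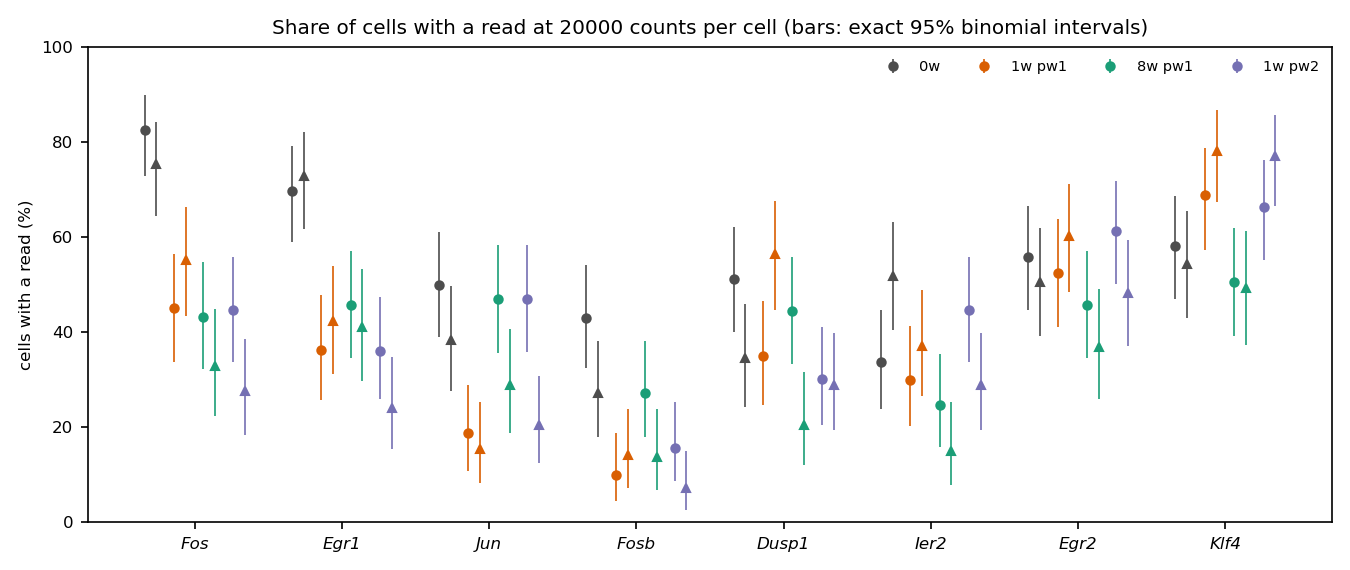
Share of cells with at least 1 read (vertical axis, percent) for 8 early genes on each plate after thinning every cell to 20000 counts, with exact 95% binomial intervals (circle, replicate 1; triangle, replicate 2; colour, time point). Fos and Egr1 are read in more cells on both 0w plates (82.6 and 75.3%, 69.8 and 72.8%) than on any later plate, and Klf4 in more cells at 1w pw1 and 1w pw2 than at 0w and 8w pw1.

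Cells were clustered without the members and the mitochondrial genes, to see where the members were read. The 13 clusters are called by number, and levels within them are CPM of the counts summed over a cluster's cells on a plate, for at least 5 cells. Clusters 3 (led by Ntrk2, Ccl27a and Ptn), 7 (Grem1, Angptl7 and Lgr5) and 9 (Avpr1a, Oxtr and Cxcl1) had enough cells at 0w and 8w pw1 only. Fos went from 555 and 379 CPM at 0w to 252 and 103 at 8w pw1 in cluster 3, from 892 and 1135 to 255 and 491 in cluster 7, and from 591 and 1072 to 19.6 and 4.78 in cluster 9. The 8w pw1 plates were below the 0w plates within each of these clusters, though cluster 9 had 5 and 7 cells at 8w pw1. Single cells held up to 78.8% of a cluster's Fos counts at 0w and up to 100% at 8w pw1, and the median cell had 298 and 110.4 CPM at 0w against 46.0 and 86.1 at 8w pw1 in cluster 3, 876 and 643 against 141 and 534 in cluster 7, and 270.2 and 213 against 0 and 0 in cluster 9. In cluster 2 (Alox12e, Cyp27a1 and Cish) Fos stood at 429.6 and 519 CPM at 0w and between 67.0 and 117 CPM on the 5 later plates with enough cells, but 1 cell held 97.2% of the counts on 0w replicate 2. In cluster 1 (Slc46a2, Klk10 and Asprv1) the plates overlapped, from 95.7 to 1206 CPM.

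At 1w pw1 the Fos reads were mostly in cluster 6 (Pdlim3, Krt15 and Smoc1) on replicate 1: its 11 cells held 4384 of the plate's 8038 Fos counts, and on replicate 2 its 8 cells held 3766 of 12038. The level of Fos in cluster 6 was 1847 and 2589 CPM at 1w pw1, against 371 and 301 at 8w pw1 and 411 and 181 at 1w pw2. Single cells held 67.2 and 63.0% of these Fos counts at 1w pw1, and the median cell of cluster 6 had 629 and 1325 CPM there and at most 408 CPM later. Atf3 had 156 and 164 CPM in cluster 6 at 1w pw1, but 1 cell on each plate held 59.2 and 79.1% of its counts in the cluster and the median cell had none. It was at 0 on both plates at 8w pw1, and at 32.2 and 0 CPM at 1w pw2. Junb stood at 66.6 and 131 CPM in cluster 6 at 1w pw1, with 57.6 and 82.6% of the counts in 1 cell, and at 7.11 to 18.7 CPM at the later time points. At 0w cluster 6 had too few cells for a value.

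Egr2 differed between clusters. It stood at 387 to 1171 CPM in cluster 1 over all 8 plates, where no cell held more than 35.5% of its counts, and at 0 to 8.28 CPM in cluster 7. In cluster 5 (S100a9, Krt6b and Wfdc17) it was 7.33 to 53.0 CPM, while Klf4 there was 153 to 316 CPM. Dusp6 was at 93.1 and 132 CPM at 0w and 168 and 133 CPM at 8w pw1 in cluster 3, and at 75.6 to 173 CPM in cluster 7 at these times. Single cells held 20.2 to 92.0% of these Dusp6 counts. Neither cluster had cells on the 1w pw1 plates, where the plate level of Dusp6 was lowest (13.3 and 16.6 CPM). At 1w pw2 cluster 3 had 0 cells on both plates and cluster 7 had 1 on each. The plate level of Dusp6 was 29.9 and 47.7 CPM there. The part of these clusters in the plate levels was not tested. Gadd45b in cluster 2 was 27.2 and 12.6 CPM at 1w pw2 against 3.02 and 0 at 8w pw1, with 53.8 and 80.0% of the 1w pw2 counts in 1 cell. In cluster 6 it was 22.2 and 54.7 CPM at 1w pw2, where 8w pw1 had 8.20 and 32.6.

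**Figure D4:**
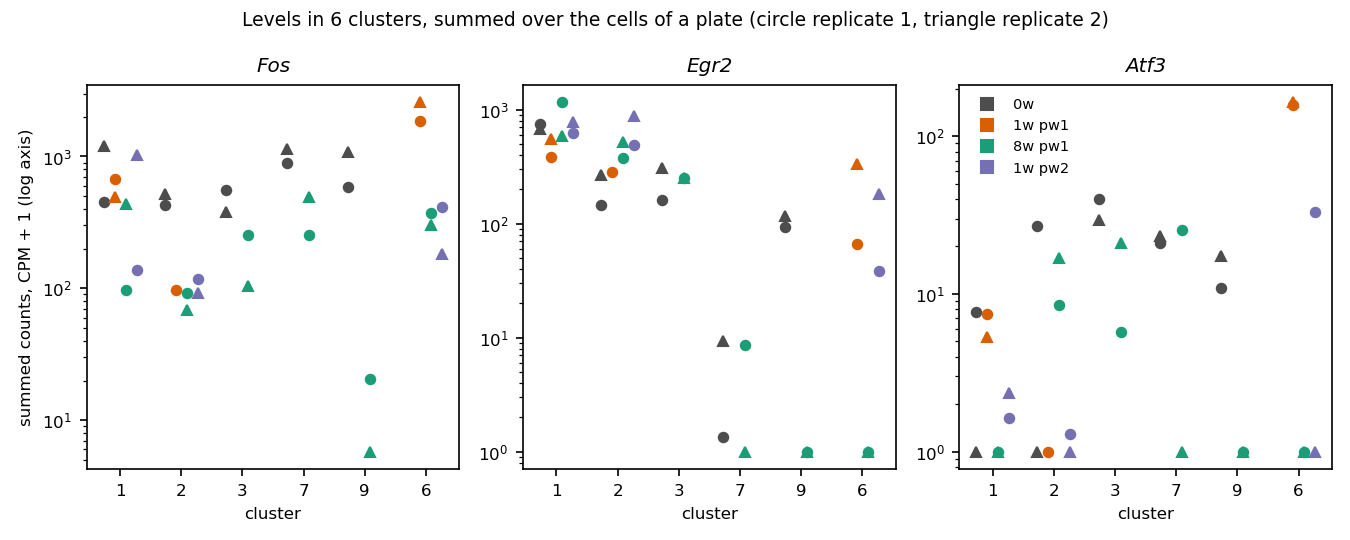
Fos, Egr2 and Atf3 in 6 clusters, as CPM + 1 of counts summed over a cluster's cells on a plate (log axis, clusters with at least 5 cells on the plate; a gene with no count sits at 1; circle, replicate 1; triangle, replicate 2). Fos at 8w pw1 lies below 0w in clusters 3, 7 and 9, its highest values are those of cluster 6 at 1w pw1 (1847 and 2589 CPM), and Egr2 is high in cluster 1 on every plate.

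From cell to cell, the reads of Fos correlated most with those of Egr1, Jun, Fosb and Dusp1. Over the cells of a plate, after thinning, the median Spearman correlation over the 8 plates was 0.428 for Fos with Egr1 (range 0.201 to 0.651), 0.377 for Fos with Jun (0.193 to 0.458), 0.367 for Fos with Fosb (0.121 to 0.504) and 0.350 for Fos with Dusp1 (0.224 to 0.573). These were the highest of 231 pairs among 22 members read in at least 20% of cells. Among the 4 partners themselves, Jun with Egr1 had 0.332 (0.214 to 0.475) and Fosb with Jun 0.163 (-0.140 to 0.507), and the latter was lower than some pairs with other members, such as Egr2 with Klf6 at 0.220 (0.0284 to 0.342). Cells of a plate share its preparation, and the values are a description with no test. Egr2 had 0.0247 with Fos (-0.284 to 0.191) and 0.185 with Dusp1 (-0.0366 to 0.350), and its lowest value was with Hsp90aa1, at -0.245 (-0.386 to -0.167).

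The genes outside the list whose log2 CPM over the 8 plates was most like the mean of the 30 tested early members were Csnk1g3 (Pearson 0.925), Rlf (0.925), Heatr3 (0.920), Yes1 (0.914) and Btbd1 (0.913), then Galnt1, Gjb2, Tsr1, Smad2 and Gata3 (0.905 to 0.913), out of 5556 genes with a mean log2 CPM of at least 4. All 10 had their 2 lowest plates at 8w pw1, as did the mean they were chosen to match, so this count restates the choice. Csnk1g3, a casein kinase, had 25.7 and 14.2 CPM there and 35.7 to 61.1 elsewhere. With 8 plates and this many genes, such values are a description only.

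Other genes of these pathways, listed apart from the members, gave no edgeR call either. Of 32 tested other early genes, 1 was higher and 5 were lower at 1w pw1 against 0w at an unadjusted p below 0.05, with a median of -0.09, and DESeq2 called 5, beside 5.45%, 6.01% and 4.68% of all genes. Ccn1, a matricellular target of Yap and serum response factor, had 65.8 and 34.6 CPM at 0w, 1.24 and 3.28 at 1w pw1, 20.7 and 4.24 at 8w pw1, and 10.2 and 4.64 at 1w pw2. Both 1w pw1 plates were the lowest, by -4.46 ± 0.96 on the log2 scale against 0w (edgeR adjusted p = 0.0826, DESeq2 1.12e-05). Ccn1 was among the leading genes of cluster 9, which had 11 and 13 cells at 0w and 0 on both 1w pw1 plates. That cluster had 5 and 7 cells at 8w pw1 and 1 and 0 at 1w pw2. Levels of Ccn1 within clusters were not taken, so the part of this makeup in its difference was not tested. Plk2, a kinase induced by stress, was the higher one, with 12.5 and 10.2 CPM at 0w and 79.4 and 41.3 at 1w pw1. At 8w pw1 against 0w 0 were higher and 2 lower (3.81% and 2.66% of all genes), with a median of -0.41 beside 0.07 for all genes. Against 1w pw1, 3 of the other early genes were higher at 8w pw1 (Ccn1, Ccn2 and Id2) and 1 lower (Rhob), beside 6.40% and 4.66%, with a median of 0.20 beside 0.09. The members had medians of -0.40 and -0.72 in these 2 comparisons, and the difference between the lists was not tested.

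Of 29 other heat shock and chaperone genes, 3 were higher (Hspb1, Hspb8 and Dnaja4) and 2 lower (Hspe1 and Serpinh1) at 1w pw1 against 0w, beside 5.45% and 6.01% of all genes, with a median of 0.06. Hspb1, a small heat shock protein of differentiating keratinocytes, had 146 and 107 CPM at 0w, 525 and 377 at 1w pw1, 353 and 192 at 8w pw1, and 579 and 256 at 1w pw2, with both 0w plates the lowest. Of 19 endoplasmic reticulum stress genes tested, 4 were higher and 0 lower at 1w pw1 against 0w (Pdia4, Herpud1, Trib3 and Asns), beside the same 5.45% and 6.01%. In all, 18 of the 19 had a log2 difference above 0, with a median of 0.57 beside -0.04 for all genes. Trib3, induced when protein folding is impaired, had 0.260 and 0.270 CPM at 0w and 5.16 and 3.11 at 1w pw1 (edgeR adjusted p = 0.244, DESeq2 0.0367). Of 21 upstream regulators, among them Mapk8, the kinase of Jun, and Egfr, 0 were higher and 3 lower at 1w pw2 against 8w pw1 (Atf1, Mapk8 and Egfr), beside 3.64% and 4.30% of all genes. At 1w pw2 against 0w, 2 were higher (Map2k2 and Rela) and the same 3 lower, beside 6.82% and 5.73%, and at 8w pw1 against 0w there were 0 in either direction, beside 3.81% and 2.66%.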

How the data were processed

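Salmon-estimated counts per gene and cell, deposited by the authors (expected counts, not normalised; Smart-seq2, single-end reads; the submitters' processing notes name Salmon 0.13.1, Seurat, R 4.0.3, mm10 and GRCm38), were summed over the cells of each plate and rounded. Seurat's part in the deposited table was not given in the sources used here. All 696 deposited cells met the study's stated filter (at least 1000 genes, at most 50% mitochondrial) and were kept; no doublet caller was run. Counts were 3551 to 1895078 per cell, and 96.6% of values were whole. There were no unique molecular identifiers, so intervals cover counting error only.

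Plate sums were fitted in edgeR 4.0.16 (R 4.3.3; TMM, filterByExpr, quasi-likelihood, 1 coefficient per time point, all 8 plates, 4 residual degrees of freedom) over 13853 genes. The SE printed after ± was not taken from the fit. It is the absolute log2 fold change divided by the square root of the F statistic of the quasi-likelihood test. DESeq2 1.42.0 was the alternative. The code was tested on simulated data. Same-numbered plates deviated together (correlation 0.121 to 0.213 over 6 pairs of time points), so the replicate number, whose meaning the labels do not state, was also fitted as a block. Cells were clustered with leidenalg 0.10.2 on 15 nearest neighbours over 20 principal components of 2000 variable genes, members left out. Promoters were RefSeq's; gene coordinates and exon lengths were from GENCODE M21. Levels on every plate were given for the 4 members per role with the lowest unadjusted p (Fosl1 as counts), and the 10 most alike other genes were named. The members and lists were chosen with earlier results of these data known.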

Additional observations from a re-analysis of the deposited data

How the results depend on the processing

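Over 41 pairs of a member and a comparison at an unadjusted p below 0.05, all 41 kept their direction under every alternative run, and 14 of 656 values passed the call threshold: 12 with DESeq2 and 2 with the replicate block. With no member called by edgeR, DESeq2 called 3, 1, 3, 4 and 1 members at 1w pw1 against 0w, 8w pw1 against 0w, 1w pw2 against 0w, 8w pw1 against 1w pw1 and 1w pw2 against 8w pw1. The replicate block called 1 at 1w pw2 against 0w and 1 at 8w pw1 against 1w pw1 (Fos in both) and changed no other member's call. The remaining alternatives, each plate left out included, called 0; the cause of these differences was not tested. The member median moved as follows. With a plate left out it ran from 0.10 to 0.34 at 1w pw1 against 0w, -0.65 to -0.31 at 8w pw1 against 0w, -0.13 to 0.18 at 1w pw2 against 0w, -0.93 to -0.53 at 8w pw1 against 1w pw1, 0.48 to 0.73 at 1w pw2 against 8w pw1, -0.29 to -0.14 at 1w pw2 against 1w pw1 and 0.13 to 0.40 for the difference between the healings. At 1w pw2 against 0w it was -0.06 with DESeq2 and -0.03 with no filter on low counts, so its sign is not settled. Without the deepest cell of each plate it was -0.54 at 8w pw1 against 0w. With the stricter filter on cells (at least 2000 genes, at most 25% mitochondrial) it was -0.81 at 8w pw1 against 1w pw1, 0.36 at 1w pw2 against 8w pw1, -0.47 at 1w pw2 against 1w pw1 and 0.16 for the healings. With every cell scaled equally the last 3 were 0.41, -0.47 and 0.03. For the difference between the healings the median in the main fit was 0.28 (all genes 0.05), and with the replicate block it was 0.18. With all counts the median share of cells was 45.3% (0w), 43.5% (1w pw1), 33.1% (8w pw1) and 42.4% (1w pw2). At 50000 counts per cell it was 38.2, 32.7, 24.4 and 30.0% in that order. In both settings 0w stood less apart from the wound time points, but both also changed the cells kept, and depth was not tested alone. The pooled median was lowest at 8w pw1 at each depth, with overlapping plates when all counts were used. Leaving mitochondrial genes out, chosen after seeing the data, called 0 members. Few counts limit Fosl1 and Klf2, and 2 plates per time point limit every test.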
